A study of Mus musculus with 16 samples.

Results

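CD8 T cells of the libraries labelled as 24-week accepted kidney grafts were compared with CD8 T cells of naive spleen. Single-cell RNA-seq (10x Genomics 3′ chemistry) had been run on viable CD45+ cells, that is, leukocytes, and the deposited CD8 matrices hold counts of unique molecular identifiers (UMIs, 1 for each captured transcript). A cell was taken from either matrix if it held at least 1 UMI of Cd8a or Cd8b1 and no UMI of Cd4, Cd79a (a B cell gene) or Lyz2 (a myeloid gene). The rule left 5970 of the 72639 cells in the 9 CD8 matrices: 1722 of 4033 in the 24-week matrix, in 3 libraries of 506, 597 and 619 cells, and 4248 of 4681 in the naive matrix, in 5 libraries of 1062, 683, 734, 859 and 910 cells. In the study, kidneys of DBA/2J donors were placed into fully mismatched C57BL/6J (B6) recipients, which accept them without immunosuppressive drugs. The 24-week libraries came from such recipients 24 weeks after transplantation, and the naive spleens came from B6 mice without a transplant. All samples were labelled wild type and of strain C57BL/6J, the study used male mice, and ages were not given in the sources used here. No deletion, transgene or drug was part of either group. Transplantation, time, the labelled tissue, the dissociation that goes with it and the matrix itself cannot be told apart. The study's methods treat each mouse as a separate sample and name as many replicates at 24 weeks as there are library tags, but neither they nor the labels tie a tag to a mouse or give the number of naive mice, so the p-values below measure the spread between libraries.

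CD8 T cells recognise peptides on MHC class I molecules and kill infected or foreign cells. Before they meet antigen they circulate between blood and lymphoid organs as naive cells, held in the spleen and lymph nodes by homing receptors, kept alive by interleukin-7 and let out again by a sphingosine-1-phosphate receptor. Cells that have met antigen, or that have expanded without it, form memory populations that express chemokines and cytotoxic molecules, and stimulated cells of any of these states switch on immediate early genes, which need no new protein synthesis for their transcription and whose products include the Fos and Jun subunits of the transcription factor AP-1.

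Before any comparison the labels were checked against the counts. The 10 CD8 T cell markers added up to 5736 to 6152 CPM (UMIs of a gene scaled to a common library size) in the 24-week libraries and 5491 to 6163 in the naive libraries. Cells were chosen on Cd8a and Cd8b1, so the presence of these markers was fixed by the choice and checks no label. By the test described below and library totals, 3 of the 10 were higher and 4 lower, so like sums held opposite changes. Thy1 and Cd8b1 were among the lower, at log2 −0.48 to −0.36 and −0.36 to −0.29 with 1 library left out. Transcripts of kidney parenchyma, which are released when a kidney is dissociated, were in the range of naive spleen in the 24-week kidney-labelled libraries. The 11 of 20 genes of that list that every matrix holds summed to 1.30 to 2.87 CPM in the 24-week kidney-labelled libraries, to 0.838 to 4.01 CPM in naive spleen and to 5.01 to 7.11 and 2.42 to 5.67 CPM in the recipient spleens at 1 and 3 weeks. They summed to 26.4 to 29.1 and 27.4 to 32.5 CPM in the accepted kidneys at those times and to 30.95 to 47.3 CPM in the libraries labelled 24-week recipient spleen. Spp1 and Napsa held most of these UMIs, with 175 and 247 in the 24-week spleen label and 693 and 258 in the 1-week kidneys. In the 24-week kidney label they had 2 and 10. Next in the 24-week spleen label were Gpx3 and Fxyd2 with 18 and 12 UMIs, against 0 and 3 in the 24-week kidney label. Whether kidney cells or leukocytes gave these transcripts was not tested. The 24-week kidney-labelled matrix lists all 6 genes that define the parenchyma (Umod, Slc34a1, Lrp2, Kap, Miox and Aqp2), and each was at 0 of 9111051 UMIs, which allows up to 0.329 CPM (counting error only), while the naive matrix lists only Slc34a1 of the 6. Together these genes had 12 and 72 UMIs in the accepted kidneys at 1 and 3 weeks. They had 14 in the 24-week spleen label, which lists 5 of the 6. At the low level of the 1-week kidneys few UMIs would be due at this depth. The 3-week kidneys, however, had their 72 UMIs with 7379166 to 9624919 UMIs in each of 5 libraries. The 24-week spleen label had its 14 with 3023024 to 4546990 UMIs in each of 3 libraries, near the depth of the 24-week kidney label. What the 0 means for the label was not tested. The share of all cells in the matrix with a Cd8a or Cd8b1 UMI was 46.2% to 49.2% in the 24-week kidney-labelled libraries, near the 41.9% to 49.2% and 44.0% to 51.8% of the recipient spleens at 1 and 3 weeks. It was 93.4% to 95.3% in the libraries labelled 24-week spleen, 83.5% to 90.1% and 96.3% to 97.0% in the accepted kidneys at 1 and 3 weeks and 95.0% to 97.6% in naive spleen. In the rejecting kidneys it was 76.6% to 78.1% and in the spleens of their recipients 100%, so spleen matrices held both low and high shares. One feature went with the label, in that the 24-week kidney-labelled matrix lists the same 19497 genes as the accepted kidney matrices of 1 and 3 weeks, and no spleen matrix does. The term 24-week libraries therefore means libraries labelled 24-week accepted kidney throughout, and every direction below rests on that label. Xist was at 0 in all 8 libraries and Ddx3y, on the Y chromosome, was present in all of them, as in cells of male mice. Ddx3y stood at log2 −0.77 to −0.53 in the 24-week against the naive libraries with 1 library left out.

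Depth was close in both groups, at 2477816 to 3846717 UMIs for each 24-week library and 3289474 to 4467803 for each naive library, with medians per cell of 4443 to 6069 and 3709 to 4974 UMIs. Ribosomal protein genes took 41.5% to 43.1% of UMIs in the 24-week libraries and 39.5% to 42.4% in the naive ones, and mitochondrial genes 5.18% to 5.36% and 3.65% to 4.64%, without overlap. No pair of libraries shared more than 0.37% of the cell barcodes of the smaller one. UMIs were summed per library. Every adjusted p below comes from the quasi-likelihood test of edgeR on these sums, adjusted over all genes by Benjamini and Hochberg's method, with 0.05 as the threshold.

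Of 9569 genes tested, 820 (8.57%) were higher and 3366 (35.2%) lower in the 24-week libraries. The median gene lay at −0.24 on the log2 scale when libraries were scaled by their totals and at −0.01 when they were scaled by TMM, which centres the bulk of the genes, and the split moved with it, to 1841 higher (19.2%) and 1657 lower (17.3%). All 820 genes higher by totals were also higher by TMM, while 1657 of the 3366 lower genes stayed lower. Under library totals and each of 4 other scalings 785 genes (8.20%) were higher and 915 (9.56%) lower. A gene is called higher or lower without further words below only where it is one of these, and a call described as made by library totals is one that at least 1 of the other scalings did not give. By library totals 802 genes (8.38%) had every 24-week library above every naive one, and 3137 (32.8%) had every 24-week library below. These genes were counted whether or not they were called. The counts of each list below stand beside these shares over all genes: 8.57% higher and 35.2% lower by library totals, 19.2% and 17.3% by TMM, and 8.20% and 9.56% under every scaling. In summed counts more cells of a state and more transcripts per cell cannot be told apart.

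Immediate early genes led the higher genes, and the 3 highest of all called genes whose mean reached 50 CPM in one of the groups were Fos, Junb and Fosb. Of 17 on the list 16 passed the filter on low counts, 12 of them (Fos, Fosb, Jun, Junb, Jund, Ier2, Ier5, Dusp1, Nr4a1, Btg2, Zfp36 and Klf6) were higher, and in all 12 the groups did not overlap. The list's median was 0.70 against −0.24 over all genes. Egr2 was lower by library totals, and Egr1 (0.02), Cd69 (0.03) and Nfkbia (−0.15) did not pass the test.

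The promoters of Fos, Fosb, Junb and Dusp1 are shown because these 4 genes were higher together and were the highest of their list above 50 CPM. Each sequence is the 250 bases before the transcription start (RefSeq, GRCm38.p6, written 5′ to 3′ on the gene's own strand), and capitals mark TGACG on either strand, the core of the site that CREB and ATF factors are known to bind.
Fos, chr12:85473640-85473889, plus strand: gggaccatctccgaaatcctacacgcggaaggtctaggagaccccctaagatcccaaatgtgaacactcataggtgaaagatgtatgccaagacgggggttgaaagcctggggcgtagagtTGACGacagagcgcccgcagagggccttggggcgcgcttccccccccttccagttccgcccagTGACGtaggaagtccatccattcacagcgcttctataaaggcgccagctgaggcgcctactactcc
Fosb, chr7:19310046-19310295, minus strand: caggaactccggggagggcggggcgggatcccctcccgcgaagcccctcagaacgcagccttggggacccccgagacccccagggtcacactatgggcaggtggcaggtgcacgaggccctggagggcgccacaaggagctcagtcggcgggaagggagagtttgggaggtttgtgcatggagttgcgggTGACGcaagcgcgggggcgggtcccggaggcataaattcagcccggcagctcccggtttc
Junb, chr8:84978749-84978998, minus strand: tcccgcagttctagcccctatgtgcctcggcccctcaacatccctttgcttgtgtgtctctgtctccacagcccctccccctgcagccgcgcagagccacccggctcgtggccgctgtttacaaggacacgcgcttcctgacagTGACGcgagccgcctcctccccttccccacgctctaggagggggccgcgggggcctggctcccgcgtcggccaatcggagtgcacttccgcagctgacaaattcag
Dusp1, chr17:26508473-26508722, minus strand: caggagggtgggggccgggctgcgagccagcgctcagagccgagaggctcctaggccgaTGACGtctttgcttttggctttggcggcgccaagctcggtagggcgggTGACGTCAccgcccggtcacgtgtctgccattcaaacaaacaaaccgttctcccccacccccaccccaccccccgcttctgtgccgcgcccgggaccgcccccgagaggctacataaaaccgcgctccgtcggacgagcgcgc

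The 5 letters occur in 17.8% of all 32851 promoters of this length and in a promoter of 19.8% of 27025 genes, so a match is common. Counts on the list are by gene, so the share of genes is the one to set beside them. Of the 17 listed genes 14 had a promoter in the table and 8 of them held TGACG, among them 6 of the 11 higher genes that had one (Fos, Fosb, Junb, Dusp1, Nr4a1 and Btg2). The full palindrome TGACGTCA, which contains TGACG on both strands, was found in 1.55% of promoters (1.77% of genes) and, on this list, in Dusp1 and Btg2. The AP-1 site TGACTCA was in 4.46% of promoters (5.16% of genes) and in none of the 14. The CArG box, which serum response factor is known to bind, was in 1.47% of promoters (1.62% of genes) and in Egr2 and Zfp36. These are matches of letters in the printed window and say nothing of binding.

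Junb, a Jun family subunit of AP-1, was at 843, 1019.9 and 939 CPM in the 24-week libraries and at 204, 169.63, 257, 188 and 147 CPM in the naive libraries. Its lowest 24-week value was above its highest naive value, and the means stood 4.83-fold apart (log2 fold change 2.27 ± 0.10 SE, adjusted p = 8.49e-15). Fos, the partner that Jun proteins bind, was at 410.05, 383 and 175 CPM against 44.3, 49.6, 86.3, 89.8 and 55.6 CPM. The groups did not overlap, although the third 24-week library had less than the other two (4.96-fold, log2 2.29 ± 0.19, adjusted p = 1.02e-09). Fosb, a Fos relative, was likewise lowest in the third of the 24-week libraries, with 247, 183 and 67.1 CPM against 21.9, 31.9, 40.9, 42.5 and 48.03 CPM (log2 2.13 ± 0.24, adjusted p = 9.69e-08). Dusp1, a phosphatase that turns MAP kinases off, was at 70.6, 87.9 and 57.97 CPM against 20.7, 21.6, 24.3, 25.5 and 14.5 CPM (log2 1.73 ± 0.14, adjusted p = 3.14e-10). Jun was at 532, 429.58 and 362 CPM against 133, 199, 179, 184 and 176 CPM (log2 1.34 ± 0.10, adjusted p = 2.04e-10), and for both of these genes every 24-week library lay above every naive one. Of the other members, Nr4a1, a nuclear receptor induced by T cell receptor signals, was low but higher at 10.1 to 14.8 CPM against 1.79 to 3.91 CPM (log2 2.10), and Jund, Ier2, Zfp36, Btg2, Ier5 and Klf6 were higher by log2 0.36 to 0.85. The annotation used here has Junb overlapping Prdx2 on the same stretch, Jun overlapping the antisense gene Junos, and 1 long Dusp1 model overlapping Ergic1, and how the counting treated strand and overlaps was not stated. 12 members were higher under every alternative but 1: with genes under a mean of 20 CPM left out, 14 members remained and 11 of them were higher.

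**Figure D1:**
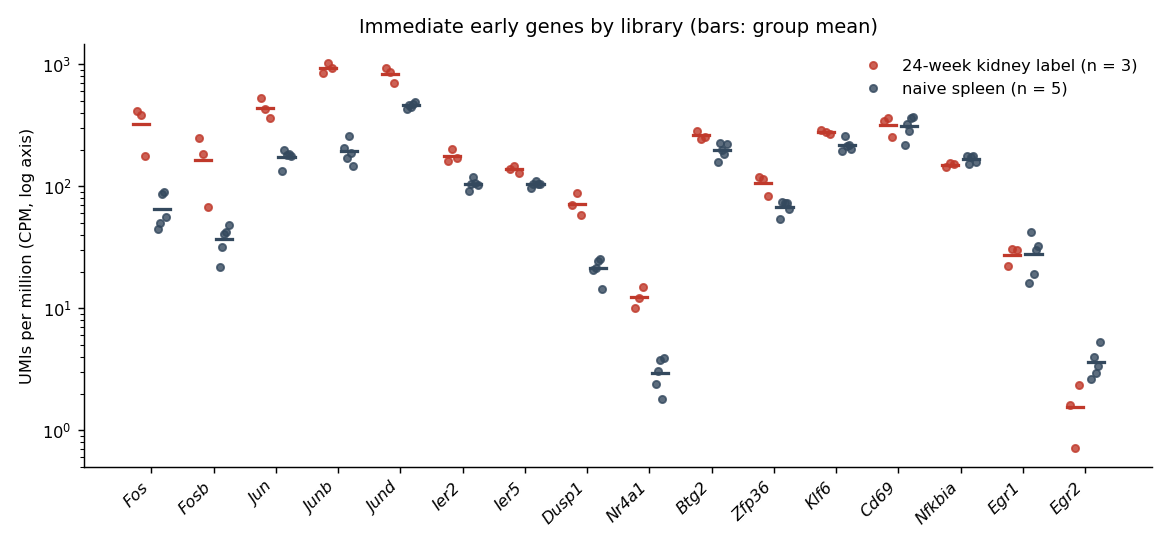
Level of the 16 tested immediate early genes in each library (CPM, log axis), with points for the 3 libraries labelled 24-week kidney (red) and the 5 naive spleen libraries (dark blue) and bars for the group means. The 24-week points of Junb, Fos, Fosb, Jun and Dusp1 lie above all their naive points, whereas those of Egr1, Cd69 and Nfkbia overlap them.

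To ask whether a few cells carried these transcripts, every cell was thinned to 1000 UMIs and the share of cells with at least 1 UMI of a gene was taken per library, a measure added after the levels were seen. Junb was detected in 51.98, 58.96 and 55.1% of cells in the 24-week libraries and in 16.3, 15.96, 20.6, 17.5 and 14.4% in the naive libraries. The groups did not overlap, at 55.3% ± 3.50 (SD, n = 3) against 16.9% ± 2.31 (n = 5), and the exact permutation p over libraries was 0.0357, the smallest that 3 against 5 libraries allow. Fos was detected in 25.3% ± 8.40 of cells against 4.98% ± 1.01, Fosb in 14.02% ± 7.46 against 3.33% ± 0.966, Jun in 31.4% ± 3.50 against 14.7% ± 2.36 and Dusp1 in 7.22% ± 1.54 against 2.19% ± 0.688, each without overlap and at the same exact permutation p of 0.0357 (two-sided, and 0.0357 also after adjustment over the 9 added measures). These genes were chosen for their levels in the same libraries, so the p-values of their shares add no independent support, adjusted or not. Cells were also divided by Ccl5, a chemokine transcript of memory and effector cells, and the groups were apart in both kinds of cell. Junb was found in 52.2% ± 10.4 of Ccl5-positive and 55.8% ± 2.37 of Ccl5-negative cells of the 24-week libraries, against 16.8% ± 4.75 and 16.9% ± 2.16 in the naive libraries, and Fos in 24.04% ± 4.86 and 25.6% ± 8.94 against 4.32% ± 2.21 and 5.09% ± 0.941. Free RNA can give a cell a UMI of a gene it does not express. B cells, which express these genes themselves, cannot serve as a background for them, and in 26031 naive spleen B cells Fos was found in 14.8% and Junb in 17.3%. Without thinning the differences were 43.7 percentage points for Junb and 41.2 for Fos. Of 11 heat shock genes tested, which encode chaperones, Hspe1 was higher by library totals and Hspa1a was lower at 0.359 to 2.42 CPM against 1.87 to 7.54 CPM. These counts rested on single libraries, with 3 higher and 2 lower without 24-week library 1 and 0 higher and 4 lower without 24-week library 3, and by TMM 5 were higher and 1 lower.

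**Figure D2:**
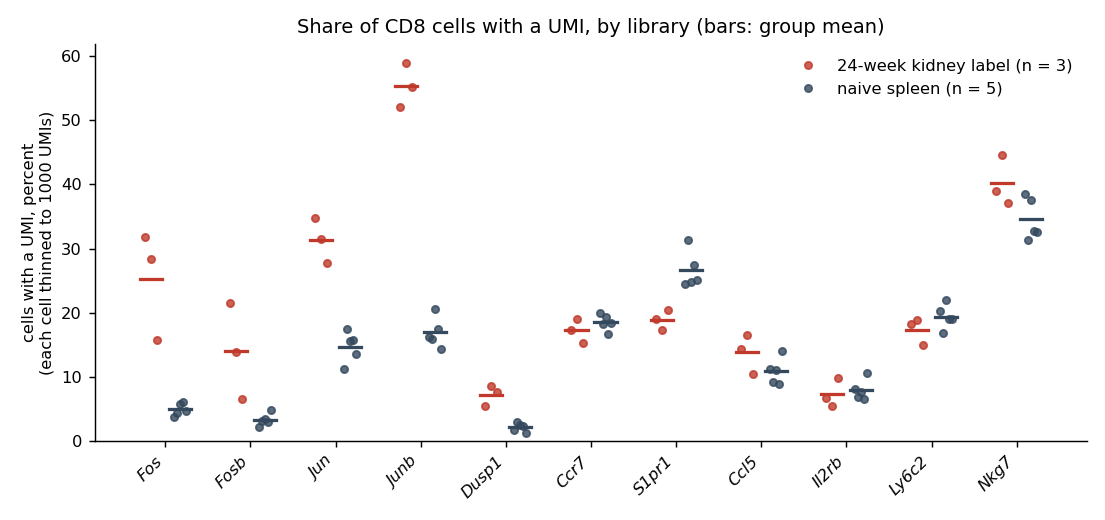
Percentage of CD8 cells with at least 1 UMI of a gene in each library, after each cell was thinned to 1000 UMIs, with points for the 24-week kidney-labelled (red) and naive (dark blue) libraries and bars for the group means. The groups are apart for Fos, Fosb, Jun, Junb, Dusp1 and S1pr1 and overlap for Ccr7, Ccl5, Il2rb, Ly6c2 and Nkg7.

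The 10 highest genes, counted from 50 CPM and without ribosomal, mitochondrial, receptor and unnamed genes, held 5 that are not immediate early genes. Lars2, the mitochondrial leucyl-tRNA synthetase, was at 602, 419 and 451 CPM in the 24-week libraries against 93.5, 152, 133, 125 and 206 CPM in the naive libraries (log2 1.79 ± 0.14, adjusted p = 2.64e-10). Gm42418, a gene model over the ribosomal RNA repeat that the rule left out and that was chosen after its values were seen, was at 20602 to 29130 CPM against 4301 to 10035 CPM (log2 1.87 ± 0.15), without overlap, and the part of ribosomal RNA reads in the level of Lars2 was not tested. Rnaset2a, a lysosomal ribonuclease gene, was at 66.6, 61.4 and 83.2 CPM against 15.5, 22.5, 27.5, 26.6 and 25.4 CPM (log2 1.599, adjusted p = 6.56e-10), and its copy Rnaset2b was also higher (log2 1.38). The pair is nearly identical, so how reads were split between them is uncertain. BC004004 (log2 1.55) and Wdr89, a WD repeat gene (112, 104 and 111 CPM against 41.6 to 49.1 CPM, log2 1.29), completed the 10. In all 10 the groups did not overlap, and all 10 were called under every scaling.

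The 10 lowest genes, by the same rule, were Kcnq1ot1 (−1.48), a long noncoding RNA antisense to Kcnq1, Dleu2 (−1.42), the host transcript of a microRNA cluster, Golga4 (−1.37), a golgin, Mau2 (−1.28), a cohesin loader, Ash1l (−1.26) and Kmt2d (−1.21), both histone methyltransferases, Dnah8 (−1.23), an axonemal dynein gene, Itsn2 (−1.19), an endocytic scaffold, Rb1cc1 (−1.16), an autophagy gene, and Macf1 (−1.15), a cytoskeletal linker. Macf1 was at 264, 312 and 313 CPM in the 24-week libraries and at 626, 693, 552, 743 and 675 CPM in the naive libraries, 2.22-fold lower without overlap (log2 −1.15 ± 0.09, adjusted p = 1.59e-10). Golga4 was at 45.6, 43.8 and 37.2 CPM against 104, 108, 98.6, 111 and 117 CPM (log2 −1.37 ± 0.10, adjusted p = 6.81e-11), again without overlap. Kcnq1ot1 (chromosome 7, 143203458 to 143296549, minus strand, GRCm38) was at 137, 115 and 120.36 CPM against 324, 337, 336, 329 and 395 CPM (log2 −1.48 ± 0.08, adjusted p = 8.25e-13). Dnah8 overlaps 7 other genes in the annotation, Glo1 among them, so its reads may belong to these. All 10 were lower under every scaling, the one adjusted for intron length included.

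The change of a gene went with the length of its introns. When the tested genes were put in 10 groups by total intron length, the median log2 fold change went from 0.01 in the shortest group (median 272 bases of intron) to −0.45 in the longest (median 144903 bases). The share called lower was 18.7% in the shortest group and 55.4% in the longest, and the share called higher was 20.5% and 3.05%. By TMM the medians ran from 0.24 to −0.22, so the slope stayed while the sign at the short end changed from near 0 to above it. Of the 10 lowest genes 7 were in the 2 groups with the longest introns, and of the 10 highest 1 was. Malat1, a nuclear noncoding RNA, took 1.52% to 1.64% of UMIs in the 24-week libraries and 1.955% to 2.43% in the naive libraries, and the part of nuclear RNA in this relation was not tested. With the median of each intron group set to the same value in every library, 1480 genes were higher and 1394 lower.

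**Figure D3:**
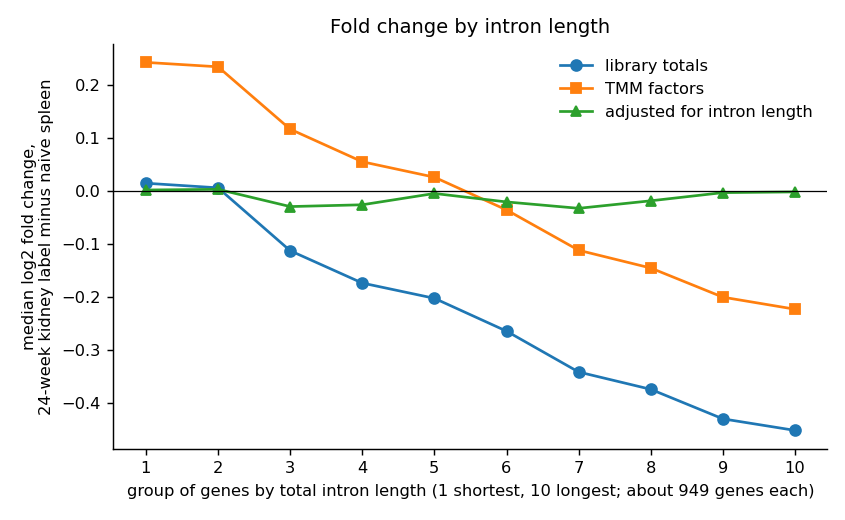
Median log2 fold change (24-week kidney label minus naive spleen) of the genes in each of 10 groups ordered by total intron length, by library totals (circles), by TMM (squares) and after adjustment for intron length (triangles, near 0 by construction). By library totals the median goes from 0.01 in the group with the shortest introns to −0.45 in the group with the longest.

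Genes of the naive state were divided. Of 14 listed and tested, 3 (Lef1, Klf2 and Igfbp4) were higher, 3 (Satb1, S1pr1 and Il7r) were lower, and 4 more were lower by library totals. The list's median was −0.26 against −0.24 over all genes, and several of its genes are ones the study used on these samples, so their count is not independent evidence. Il7r, the interleukin-7 receptor chain that keeps naive and memory cells alive, was at 371, 410.2 and 434 CPM in the 24-week libraries and 782, 663, 767, 665 and 696 CPM in the naive libraries. That was a 1.76-fold lower mean without overlap (log2 −0.82 ± 0.08, adjusted p = 4.6e-09). Satb1, a chromatin organiser of T cells, was at 302, 314 and 325 CPM against 562, 535, 533, 504 and 532 CPM (log2 −0.76 ± 0.07, adjusted p = 2.46e-09). S1pr1, the receptor for egress from lymphoid tissue, was at 211, 196 and 212 CPM against 292, 373, 289, 321 and 298 CPM (log2 −0.61 ± 0.08, adjusted p = 1.49e-06), and neither gene's groups overlapped. In contrast Klf2, a transcription factor of quiescent T cells known to drive S1pr1, was higher at 916, 912 and 858 CPM against 580.3, 676, 664, 724 and 770.47 CPM (log2 0.39 ± 0.07, adjusted p = 0.000134). Lef1, a transcription factor of naive and early memory cells, was at 504 to 532 CPM against 379 to 489 CPM (log2 0.25), and Igfbp4, whose transcript marks naive CD8 cells, at 96.9 to 125 CPM against 53.6 to 82.5 CPM (log2 0.73). The lymph node homing receptor gene Ccr7 (170.31 to 201 against 191 to 214 CPM, log2 −0.12 by totals and 0.11 by TMM) overlapped between the groups and did not pass the test. Tcf7 was lower by library totals (log2 −0.31) and not by TMM (−0.08).

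Per cell, S1pr1 was detected in 18.97, 17.3 and 20.4% of the 24-week cells and 24.5, 31.3, 24.8, 27.5 and 25.1% of the naive cells. The groups did not overlap, with an exact permutation p of 0.0357, but the value was 0.5 after adjustment over the 14 planned genes, and without thinning the difference was −8.89 percentage points with an exact permutation p of 0.143. Ccr7 was detected in 17.3% ± 1.88 of cells against 18.6% ± 1.21, and the groups overlapped. At least 2 genes of the naive list (without Foxp1 and Bach2) were found in 82.8% ± 0.512 of cells in the 24-week libraries and in 87.9% ± 1.61 in the naive libraries, again without overlap, a difference of −5.02 percentage points that was −1.13 without thinning.

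**Figure D4:**
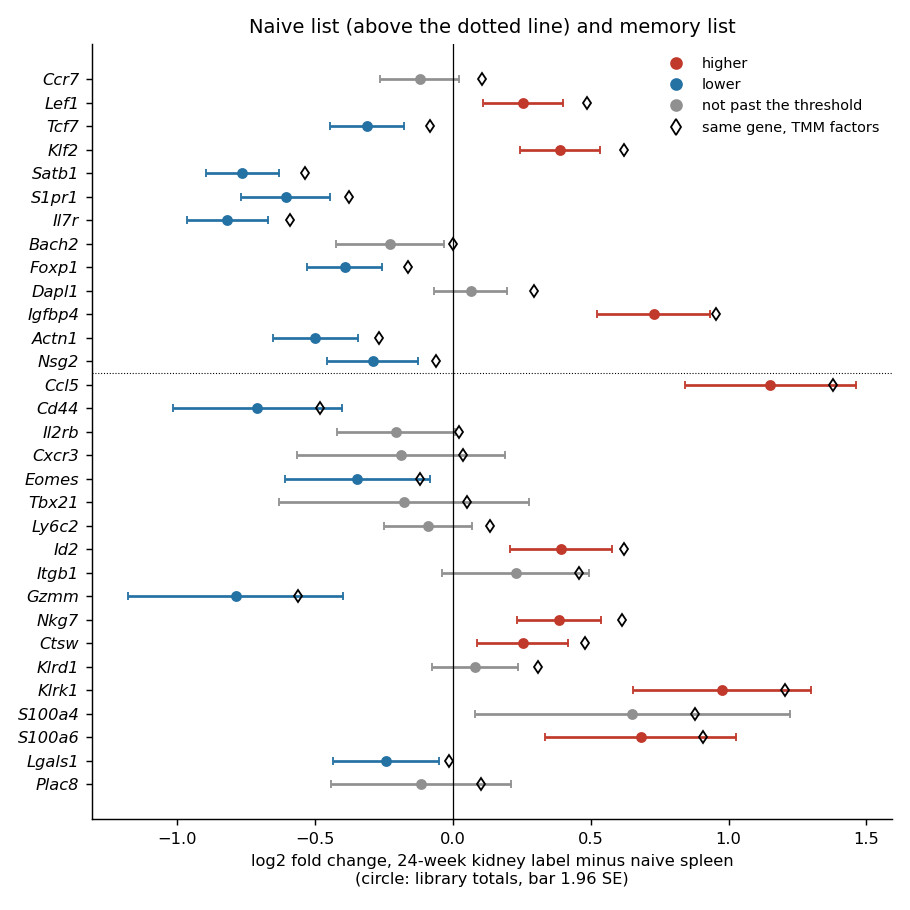
Log2 fold change of the naive list genes reported here (above the dotted line) and of the memory list genes, with circles for library totals, coloured by call, bars for the confidence interval from the SE and open diamonds for TMM. Satb1, S1pr1 and Il7r lie below 0 under both scalings, Klf2 and Ccl5 above 0 under both, and Ccr7 changes sides.

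Among the 18 memory genes 6 (Ccl5, Id2, Nkg7, Ctsw, Klrk1 and S100a6) were higher, and 4 (Cd44, Eomes, Gzmm and Lgals1) were lower by library totals (2 of them, Cd44 and Gzmm, when naive library 3 was left out). A stricter choice of cells was also made, in which a cell needed both Cd8a and Cd8b1 and no UMI of Tyrobp, Fcer1g, Cd79b, Ms4a1, Cst3 or Hbb-bs, and under it 4 were higher, without Ctsw (0.20) and Klrk1 (0.16), 5 were lower and the median was −0.099. Ctsw was also not called without 24-week library 1 or 2. With the first choice of cells the median was −0.0046 against −0.24 over all genes. Ccl5 was at 1582, 1863 and 905 CPM in the 24-week libraries against 578, 625, 570.21, 511 and 978 CPM in the naive libraries. The third 24-week library lay below the highest naive library, so the groups overlapped although the test was passed (2.22-fold, log2 1.15 ± 0.16, adjusted p = 2.01e-06). Ccl5 was detected in 14.4, 16.6 and 10.5% of 24-week cells and 11.2, 9.22, 11.04, 8.85 and 14.1% of naive cells, which overlapped (exact permutation p = 0.214), whereas a Ccl5-positive cell held on average 8.34 to 15.0 Ccl5 UMIs in the 24-week libraries and 5.17 to 8.16 in the naive libraries, without overlap. In naive spleen B cells, which should lack the gene, the share was 1.04% after the same thinning to 1000 UMIs. Before thinning the median cell held 2723 UMIs in the B cells and 5010 and 4304 in the 24-week and naive CD8 cells. Nkg7, a cytotoxic granule gene, was at 549 to 680.43 CPM against 404 to 505 CPM (log2 0.39), Klrk1, which encodes the activating receptor NKG2D, at 25.5 to 38.8 CPM against 13.4 to 24.02 CPM (0.98) and Id2, a regulator of effector differentiation, at 105 to 133 CPM against 74.6 to 103 CPM (0.39). Cd44, the adhesion receptor that rises on memory cells, was at 11.96 to 17.9 CPM against 19.3 to 26.2 CPM (log2 −0.71 by totals, −0.48 by TMM). The receptors Il2rb (75.9 to 102 against 85.5 to 123 CPM, log2 −0.21 and 0.02 by TMM) and Cxcr3 (11.7 to 23.7 against 13.7 to 26.2 CPM, −0.19 and 0.04), and Ly6c2 (299 to 372 against 317 to 391 CPM, −0.09 and 0.14), which mark virtual and central memory cells, did not pass the test. At least 2 memory list genes were found in 40.6% ± 3.99 of 24-week cells and 38.7% ± 3.18 of naive cells, and the groups overlapped. None of the 14 planned gene shares passed after adjustment, and S1pr1 was the only one at an unadjusted p under 0.05 at 1000 UMIs. Without thinning S1pr1 was not, while Itgb1 (18.8% ± 0.650 against 15.7% ± 1.90), Pdcd1 (0.569% ± 0.214 against 0.159% ± 0.127) and Fgl2 (0.916% ± 0.513 against 0.255% ± 0.196) were higher without overlap in the 24-week cells, which were the deeper ones, each at an exact permutation p of 0.0357 (0.167 after adjustment over the 14). At 2000 UMIs per cell S1pr1, Pdcd1 (0.408% against 0.0443%) and Gzmk (0.699% against 0.274%) reached the same exact permutation p of 0.0357.

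Effector genes were scarce in both groups. Of 13 cytotoxic genes 8 passed the filter and 3 were higher: Xcl1, a chemokine of cytotoxic cells that draws dendritic cells, at 33.5, 49.5 and 16.6 CPM against 9.78, 4.86, 9.35, 6.94 and 8.10 CPM (log2 2.03 ± 0.24, adjusted p = 2.9e-07), Fasl, the ligand of the death receptor Fas, at 3.23 to 8.61 CPM against 0.477 to 1.57 CPM (log2 2.12), and Ccl4, an inflammatory chemokine, which overlapped at 4.94 to 15.4 CPM against 3.81 to 7.21 CPM (0.89). For Xcl1 and Fasl all 3 libraries lay above the naive ones, with the third lowest for Xcl1. Under the stricter choice of cells Xcl1 stood at 0.83 (adjusted p = 0.0487) and Ccl4 at 1.27, and Fasl had too few counts. Without 24-week library 3 the filter kept 12 genes and 7 were higher, and over all single libraries left out the count ran from 2 to 7. Natural killer genes summed to 14.5, 15.1 and 17.4 CPM in the 24-week libraries against 4.26 to 10.1 CPM in the naive ones. The part of natural killer cells in the values of the cytotoxic genes was not tested. Perforin (Prf1) was lower by library totals (log2 −0.36), and Ifng, the interferon gamma gene, was at 2.86 to 6.82 CPM against 1.43 to 3.95 CPM and did not pass (0.72). Granzyme B (Gzmb) had 29 UMIs in all 24-week cells and 39 in all naive cells, and granzyme K (Gzmk) 28 and 27, too few for the test.

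Of 10 genes of exhaustion and checkpoints only 4 passed the filter. Ctla4, an inhibitory receptor, was higher at 6.86 to 11.7 CPM against 2.51 to 4.54 CPM (log2 1.56), as were Nr4a2, a nuclear receptor, at 7.67 to 17.9 CPM against 2.01 to 5.86 CPM (1.77), and Cd160, which overlapped, at 21.1 to 33.9 CPM against 17.2 to 21.3 CPM (0.50). Under the stricter choice of cells Ctla4 remained higher (1.69), Cd160 did not pass (0.43) and Nr4a2 had too few counts. Tox, the factor that sustains exhausted cells, was lower by library totals (log2 −0.38) and not by TMM (−0.15). Pdcd1, the gene of PD-1, had 14 UMIs in the 24-week cells and 7 in the naive cells, Lag3 15 and 7, and Havcr2 1 and 2. After thinning, Pdcd1 was seen in 2 of 1722 24-week cells and in 0 of 4248 naive cells, which allows up to 0.0706% of cells with a UMI at this reduced depth and does not limit the cells that express it. It was seen in 0.0154% of B cells, also thinned to 1000 UMIs.

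Regulatory genes gave 5 tested of 10. Tnfrsf18, the costimulatory receptor GITR, was higher at 38.5 to 56.1 CPM against 28.3 to 35.8 CPM (log2 0.54), and Ikzf2, the gene of Helios, was higher but overlapped (32.2 to 43.1 against 15.02 to 32.7 CPM, 0.55). With cells that held Ccl5, Cxcr3 or Il2rb left out, Ikzf2 stood at −0.19, and without 24-week library 2 only Tnfrsf18 was higher. Icos was lower by library totals (−0.40). Fgl2, whose product suppresses T cells, had 17 UMIs against 11, and Foxp3 4 against 6. Of 11 residency genes 8 were tested: Rgs1, a regulator of chemokine receptor signals, was higher at 42.4, 71.8 and 53.6 CPM against 31.9, 27.1, 20.03, 22.8 and 21.5 CPM (log2 1.18 ± 0.14, adjusted p = 2.99e-07), Rgs2 (0.42) and Bhlhe40 (1.54) were also higher, and Runx3, the factor that fixes the CD8 lineage and residency, was lower at 89.2, 103 and 119 CPM against 235, 236, 202, 203 and 211 CPM (log2 −1.05 ± 0.09, adjusted p = 1.14e-09). None of these 4 overlapped. Under the stricter choice of cells Rgs1 (1.02) was higher and Runx3 (−1.04) lower, Rgs2 did not pass (0.19) and Bhlhe40 had too few counts. Without 24-week library 2 Bhlhe40 did not pass, which left 2 higher. Cxcr6 was lower by library totals (−0.45), the integrin gene Itgae was at 20.1 to 27.6 against 23.8 to 34.02 CPM (log2 −0.18 and 0.05 by TMM) and did not pass, and Itga1 had 29 UMIs against 12.

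Of 15 genes of MHC class I and peptide loading 9 were higher and 3 (H2-Q4, Nlrc5 and Tap1) were lower by library totals, against 11 and 0 by TMM, with a median of 0.29 against −0.24 over all genes. B2m, the invariant light chain, was at 1827, 1899 and 1926 CPM against 1200.4, 1295, 1314, 1305 and 1202 CPM (log2 0.58 ± 0.06, adjusted p = 3.33e-08), without overlap. H2-T23, the nonclassical heavy chain Qa-1, was at 207, 156 and 198 CPM against 78.9, 92.4, 76.4, 105 and 63.1 CPM (log2 1.17 ± 0.11, adjusted p = 6.9e-09). H2-D1 (0.38) and the immunoproteasome subunit Psmb9 (0.52) were higher too, whereas H2-K1, the other classical heavy chain of B6 mice, did not pass (−0.01 by totals). Heavy chain genes are close copies, so their separate values are uncertain. Of genes that interferon induces, by edgeR none of 18 tested was higher (1 at an unadjusted p under 0.05, 2 by DESeq2 and 3 without 24-week library 1, with 0 to 3 over all single libraries left out), 4 were lower by library totals and 1 of these, Ifi203 (−0.49), under every scaling, while by TMM 4 were higher and 2 lower.

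The list of T cell receptor and proximal signalling genes gave 2 higher and 11 lower of 16 by library totals, and 3 and 3 by TMM. Over all genes 8.57% were higher and 35.2% lower by library totals. By TMM 19.2% and 17.3% were, and the counts of the list by TMM were near these shares. By library totals the 11 of 16 lower were a larger share than over all genes, and 2 of them were lower under every scaling. Cd3g (795, 727 and 704 against 438, 410.1, 465, 492 and 510.48 CPM, log2 0.68 ± 0.07, adjusted p = 4.47e-08) and Cd3d (0.25), both CD3 chains, were higher. Themis (121 to 129.55 against 196 to 224 CPM, −0.76), a receptor signalling adaptor, and Lck (388 to 409 against 506 to 662 CPM, −0.45), the kinase bound to CD8, were lower. Of 10 quiescence genes 5 were higher, among them Txnip (0.52), which restrains glucose uptake, and Tsc22d3 (0.49), a glucocorticoid-induced gene, and 2 were lower, Klf3 (−0.64) and Foxo1 (−0.63), the factor known to drive Il7r and Klf2.

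**Figure D5:**
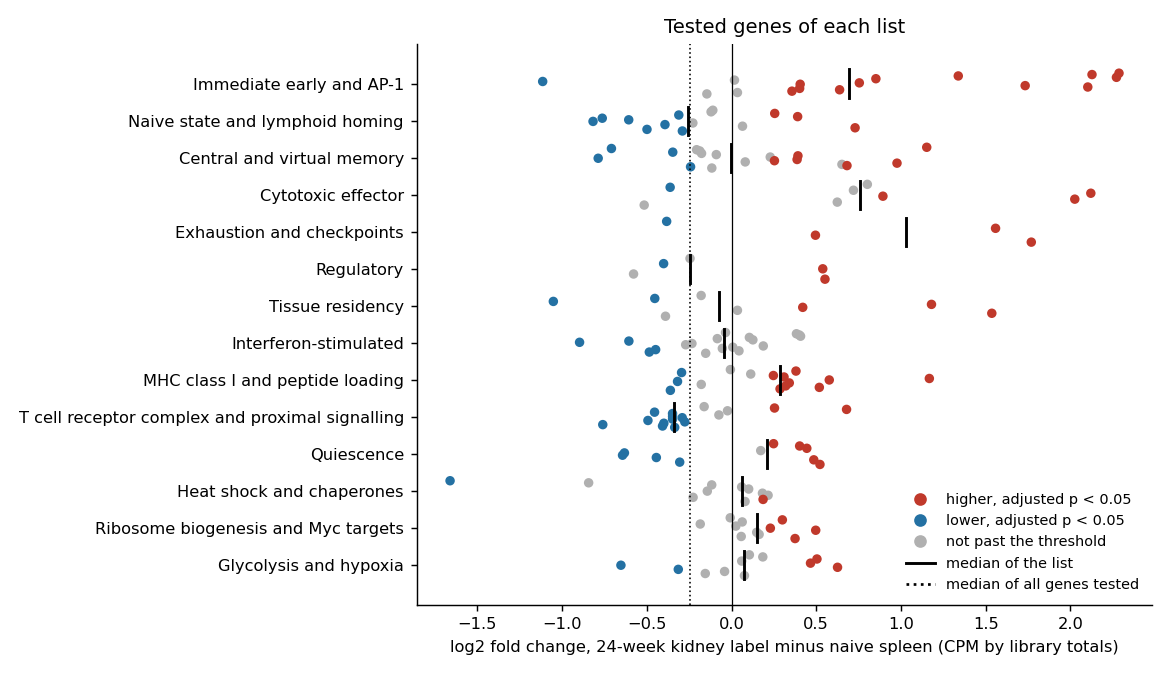
Log2 fold change by library totals of every tested gene of 14 lists, with points coloured by call, a black tick at each list's median and a dotted line at the median of all genes tested. The immediate early list has its median at 0.70 and 12 of 16 genes called higher, while the T cell receptor list lies at −0.34 with 11 of 16 called lower, 2 of them under every scaling. Of all genes tested 8.57% were called higher and 35.2% lower by library totals.

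Of 90 tested nuclear genes of oxidative phosphorylation 38 were higher and 1 lower under every scaling (38 and 4 by library totals, 68 and 1 by TMM), with a median of 0.18 against −0.24 over all genes. Sdhd, a membrane anchor of complex II, was at 43.2, 40.9 and 45.8 CPM against 22.4, 22.8, 24.04, 16.8 and 18.99 CPM (log2 1.05 ± 0.12, adjusted p = 1.12e-07). Of 13 mitochondrially encoded genes 7 were higher, mt-Cytb by 0.60 (4138 to 4298 against 2452 to 3089 CPM), and 3 were lower, mt-Nd4l (log2 −1.30), mt-Nd3 (−0.79) and mt-Atp8 (−0.49), with mt-Nd6 also lower by library totals. In glycolysis, of 11 tested, Gapdh (0.50), Aldoa (0.47) and Tpi1 (0.63) were higher and Eno1 (−0.65), which has near-identical copies in the genome, was lower, and Hif1a was lower by library totals, while by TMM 6 were higher and 1 lower. In ribosome biogenesis 4 of 11 (Npm1, Eif5a, Eif4a1 and Ppia, by 0.23 to 0.50) were higher, and 9 were by TMM. Of 92 tested ribosomal protein genes, a list taken by symbol that also holds S6 kinases and pseudogenes, 32 were higher and 7 lower under every scaling (38 and 24 by library totals, 62 and 10 by TMM). The pseudogene Rpl36a-ps1 was at 34.8 to 54.6 CPM against 5.01 to 8.94 CPM (log2 2.55) and Rpl35 at 1272 to 1686 against 2311 to 3126 CPM (−0.91), and both are uncertain where copies share reads. Cell cycle genes were few: Stmn1 (0.72) and H2afz (0.26) were higher of 6 tested, and Mki67 had 7 UMIs against 37. Under the stricter choice of cells neither passed (0.40 and 0.21), and 0 of 6 were higher.

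Markers of other cells were low in both groups. B cell genes summed to 328 to 456 CPM against 343 to 500 CPM and CD4 T cell genes to 4.84 to 6.24 against 4.53 to 5.88 CPM, and both overlapped. Natural killer genes summed to 14.5 to 17.4 CPM against 4.26 to 10.1 CPM without overlap, with Klre1 higher (1.57). The others had too few counts for the test. Of 9111051 and 19276949 UMIs, Ncr1 had 10 against 9, Klrb1c 25 against 17, Klra8 4 against 22 and Klra4 4 against 14. Gamma-delta T cell genes summed to 8.48 to 22.4 against 2.43 to 10.95 CPM, with Trdc higher (1.28). The myeloid list summed to 164 to 165 against 130 to 194 CPM: Tyrobp (1.58), Fcer1g (2.53) and Ctss (0.21) were higher while C1qa was at 0 against 18 UMIs. S100a8 was at 8 against 133 UMIs and S100a9 at 4 against 126, most of them in naive libraries 1 and 3. Tyrobp and Fcer1g are adaptors that natural killer cells also carry. The part of natural killer and gamma-delta T cells in the memory and cytotoxic genes above was not tested. Under the stricter choice of cells Ikzf2 stood at 0.00 in place of 0.55 and was not called, while Junb stood at 2.34, Fos at 2.19 and Ccl5 at 0.94. Haemoglobin transcripts were nearly absent from the 24-week libraries, where Hbb-bs was at 0 (up to 0.329 CPM is allowed), while the naive libraries had 57.2, 75.1, 6.14, 3.36 and 3.07 CPM. The 2 platelet genes were at 0 in all 8 libraries.

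The levels in the other CD8 libraries were set beside these without a test, since they are separate matrices. Junb was at 475 to 784 and 492 to 605 CPM in recipient spleens at 1 and 3 weeks and at 747 to 902 and 662 to 749 CPM in grafts at those times, and Fos at 103 to 434, 114 to 187, 60.2 to 116 and 155 to 243 CPM. The libraries labelled 24-week spleen had 1338 to 1887 CPM of Junb and 127 to 205 CPM of Fos. For Junb all these accepted groups lay above the naive libraries, whereas the rejecting grafts (110.35 to 245 CPM) and the spleens of their recipients (218 to 367 CPM) overlapped the naive 147 to 257 CPM. These rejecting samples carry the same strain label, but the study describes them as B6 kidneys in DBA/2J recipients, so rejection and the strain of the recipient cannot be told apart in them. Fos was at 15.4 to 47.6 and 30.95 to 68.8 CPM in these rejecting groups. Ccl5 was at 11738 to 13799 CPM in the 3-week grafts and 14598 to 17155 CPM in the 24-week spleen label, far above the 905 to 1863 CPM of the 24-week kidney label, and at 1521 to 2391 CPM in the 3-week spleens. S1pr1 was at 6.68 to 11.4 CPM in the 3-week grafts, 12.1 to 23.5 CPM in the 24-week spleen label and 202 to 224 CPM in the 1-week spleens, against 196 to 212 CPM in the 24-week kidney label. In the same 3 groups Satb1 was at 21.4 to 35.9, 18.9 to 43.1 and 258 to 267 CPM. The 3-week spleens lay higher than the 24-week kidney label for both genes and overlapped naive spleen, at 242 to 311 CPM of S1pr1 and 472 to 564 CPM of Satb1. For the long gene Macf1 the 1-week spleens were at 269 to 320.32 CPM, within or near the 264 to 313 CPM of the 24-week kidney label, and the 3-week spleens at 603 to 785 CPM, near naive spleen.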

How the data were processed

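The authors deposited matrices of UMI counts per gene and cell, made with Cell Ranger (version not given in the sources used here) on mm10 per the submitters' processing notes, from viable CD45+ cells sorted from digested kidney or ground spleen after red cell lysis. The deposited counts were not normalized. Library tags in the barcodes gave 3 and 5 libraries, each taken as 1 replicate, and 0 columns of per-sample values could not be mapped. Counts of cells passing the rule were summed per library over 17248 genes present in both tables. Genes passing filterByExpr were tested with edgeR 4.0.16 (R 4.3.3; glmQLFit and glmQLFTest, plain library totals, Benjamini-Hochberg, threshold 0.05), with DESeq2 1.42.0 and TMM factors among the alternatives; the standard error is the log2 fold change divided by the root of the F statistic. Tested on simulated counts, the step recovered 81 of 100 genes changed by 1 and 100 of 100 changed by 2 on the log2 scale, with 7 false calls. The simulation held 9569 genes, with as many changed up as down and no shift of the other genes. It therefore does not cover errors that come from the choice of scaling. Shares of cells were compared after thinning to 1000 UMIs (no cell was left out) with exact two-sided permutation tests (scipy 1.17.1, numpy 2.4.6). CPM does not correct for gene length, so levels are compared between groups and not between genes. Doublets were not called; cells with a Cd4, Cd79a or Lyz2 UMI were left out. Intron lengths came from GENCODE M21 (GRCm38).

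Genes are named by a rule: the 10 highest and 10 lowest called genes that reach 50 CPM on average in either group (mitochondrial, ribosomal, antigen receptor and unnamed genes left out), 22 set genes, up to 4 called genes per list that reach 20 CPM, and label checks. Other names (such as Gm42418, Nr4a1, Fasl, Ctla4, Nr4a2, Bhlhe40, Hspa1a, Id2, Nkg7 and the markers of other cells) were chosen after their values were seen. The comparison, the 28 lists and the tests were chosen with earlier results of these data known. Shares of immediate early genes, their split by Ccl5 and the levels in other groups were added after seeing the data. The 24-week CD45+ matrix was not used here, and 1 gene of the naive list is counted with the list but not reported here on its own.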

Additional observations from a re-analysis of the deposited data

Results flagged for a closer look

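In 7 of 132 sets of 5 naive libraries, 1 library lay far from the other 4, with a gap to its neighbour of more than 0.71 of the whole range (Dixon's test), and chance flags about 1 set in 20. Naive library 5 stood above the rest for 4 genes. Its gap was 0.819 of the range for Kcnq1ot1 (395 CPM against 324 to 337 CPM), 0.757 for Ccl5 (978 CPM against 511 to 625 CPM), 0.805 for Lck (662 CPM against 506 to 537 CPM) and 0.741 for Klrk1 (24.0 CPM against 13.4 to 16.1 CPM). For Ccl5 that library is the one above the third 24-week library, and without it the log2 fold change was 1.34 in place of 1.15. Naive library 1 stood below the rest for Cd160 (0.764, 17.2 CPM against 20.3 to 21.3 CPM) and for the summed CD4 T cell genes (0.784, 4.53 CPM against 5.59 to 5.88 CPM), and naive library 2 for Tsc22d3 (0.758, 127 CPM against 169 to 182 CPM). The 24-week group of 3 libraries was not tested in this way.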

How the results depend on the processing

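The counts of genes moved with scaling and depth. Higher genes numbered 820 by library totals, 1841 by TMM, 1485 by DESeq2 and 1480 with intron length adjusted, 1358 over all cells of the matrices, 517 under the stricter choice of cells and 468 with cells thinned to 2000 UMIs. Lower genes numbered 3366, 1657 by TMM, 1178 by DESeq2, 1394 with intron length adjusted, 2196 with a mean of at least 20 CPM and 1998 with cells thinned to 2000 UMIs. Fewer genes and fewer UMIs entered the last 2 settings, and the cause of the other shifts was not tested. Leaving out 1 library at a time gave 601 to 787 higher and 2744 to 3327 lower genes. The difference in cells with at least 2 naive list genes was −1.13 percentage points without thinning and −5.46 to −4.55 with 1 library left out, where no split can pass 0.05. The memory list difference was −5.63 over all cells of the matrices.

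The 10 highest and the 10 lowest genes kept their direction and their call under every alternative, and 11 to 12 immediate early genes were higher under each. Both sets of 10 had been picked for the largest changes in the same libraries, so a turn of direction was unlikely from the start. Other directions turned, all but 1 of them in values that were not called or were called by library totals only. By TMM, Ccr7 stood at 0.107, Il2rb at 0.0235, Cxcr3 at 0.0386, Ly6c2 at 0.135 and Itgae at 0.0516. By DESeq2 these were 0.111, 0.0197, 0.0683, 0.140 and 0.0535. With intron length adjusted, Ccr7 stood at 0.0254, Tox at 0.0697 and Itgae at 0.178. Over all cells of the matrices, Cd44 stood at 0.0888, Il2rb at 0.0066, Cxcr3 at 0.454, Cxcr6 at 0.0969, Icos at 0.144 and Ighm at 0.005. Cxcr3 stood at 0.121 with cells thinned to 2000 UMIs and ran from −0.421 to 0.109 with 1 library left out, and Ikzf2, called higher, stood at −0.193 without cells that held Ccl5, Cxcr3 or Il2rb. Differences in shares, in percentage points, turned to 0.767 for Ccr7 without thinning and to −7.93 for Nkg7 over all cells. With 1 library left out they ran from −0.275 (without 24-week library 1) to 0.525 for Cxcr3, from −1.83 to 0.333 (without 24-week library 2, and 0.0617 without naive library 5) for Il2rb, from −0.258 to 0.210 (without 24-week library 2, and 0.0759 and 0.156 without naive libraries 3 and 4) for Itgae, and from −0.147 (without 24-week library 2, and −0.0169 without naive library 3 or 4) to 0.104 for Fgl2. Among the genes named, calls of Prf1, Ccl4, Cd160, Icos, Hspe1, Ctss, S100a6, Ctsw, Eomes, Lgals1, Ikzf2, Cxcr6, Bhlhe40, Egr2, Hif1a, Nlrc5, Trdc, Eif4a1 and Igkc were lost when at least 1 single library was left out. No paired analysis was possible because the labels give the libraries no replicate numbers.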

Other observations

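The spread among the 24-week libraries was wide for a pair of chaperone genes, chosen after their values were seen. Hsph1, a co-chaperone, was at 20.99, 54.55 and 117 CPM in the 3 libraries and at 51.3 to 128 CPM in the naive ones, and Dnaja1, an Hsp40 family member, at 357, 596 and 954 CPM against 456 to 756 CPM. Neither passed the test (log2 −0.23 and 0.22).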
